A study of Mus musculus with 24 samples.

Results

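The 10 genes described here mark the transmitter that a spinal neuron releases. They were taken by symbol from the 21965 genes of the count table, and all 10 were present and passed the filter on low counts. Chat, Slc5a7 and Slc18a3 mark cholinergic neurons, Slc17a6 and Slc17a7 glutamatergic neurons, Gad1, Gad2 and Slc32a1 GABAergic neurons, Slc6a5 glycinergic neurons, and Tac1 neurons that release tachykinin peptides. The genes were measured in the injured spinal cord of OL-Ribotag mice, in which oligodendrocytes (OLs) carry a tagged ribosomal protein. All mice of all groups were tamoxifen-treated females in which an inducible Cre, driven by a promoter of myelinating glia, switched on an HA-tagged Rpl22 protein (rpl22HA). The naive group was left uninjured, and the spinal cord injury (SCI) groups received a contusion of 50 kdyn at T9 with a computer-driven impactor, at an age of 10 to 12 weeks per the labels. Tissue spanning the injured segment was collected at 2, 10 or 42 days post-injury (dpi). Per the methods, naive and dpi 42 tissue came from mice of the same age, which makes the mice of dpi 2 and dpi 10 younger than the naive mice. Each group held 3 tissue pools of 2 mice each. Every pool gave a total RNA library from the unfractionated lysate and an OL library from the RNA that was pulled down with the tagged ribosomes, which makes 8 groups of 3 libraries. The Cre driver is also active in Schwann cells, and the pulldown is an enrichment rather than a purification.

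Motor neurons and autonomic preganglionic neurons are the main cholinergic cells of the spinal cord. Chat makes acetylcholine, Slc5a7 takes choline back into the terminal, and Slc18a3 loads acetylcholine into vesicles. Excitatory neurons load glutamate with a vesicular transporter, Slc17a6 in most spinal neurons and Slc17a7 mainly in sensory afferents and in the brain. Inhibitory neurons make GABA with the enzymes Gad1 and Gad2, take up glycine with Slc6a5, and load both transmitters with the same vesicular transporter, Slc32a1. Tac1 encodes the precursor of substance P and neurokinin A, which are made by dorsal horn neurons and by sensory neurons of the dorsal root ganglia.

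Chat and Slc18a3 form a compact cholinergic locus and are shown first because the comparison of OL with total RNA below turns on Slc18a3. Per the GENCODE annotation of GRCm38, Chat lies on the minus strand at chr14:32408203-32465989, and the intronless gene Slc18a3, chr14:32462438-32464850, sits inside an intron of Chat on the same strand with 0 exon bases in common. Their start sites were 1059 bases apart in the RefSeq table. The upstream sequences below, from RefSeq promoters of GRCm38.p6, cover chr14:32465990-32466159 for Chat and chr14:32464851-32465100 for Slc18a3, both on the minus strand and written 5′ to 3′ up to the annotated gene. Capitals mark the letters CACGTG (an E-box) in Chat and GGGCGG (a GC box, here on the opposite strand as CCGCCC) in Slc18a3.
Chat: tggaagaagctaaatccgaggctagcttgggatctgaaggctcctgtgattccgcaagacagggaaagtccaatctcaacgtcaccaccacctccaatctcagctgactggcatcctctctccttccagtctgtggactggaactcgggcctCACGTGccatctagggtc
Slc18a3: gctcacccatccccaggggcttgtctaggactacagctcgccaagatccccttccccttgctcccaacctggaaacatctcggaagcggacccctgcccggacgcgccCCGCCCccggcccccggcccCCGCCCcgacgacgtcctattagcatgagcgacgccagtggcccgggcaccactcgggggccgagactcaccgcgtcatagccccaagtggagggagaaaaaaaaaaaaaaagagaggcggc
Both motifs were searched on both strands in windows of 300 bases around the start sites, and neither overlaps the other. The E-box letters were found in 7.15% of all 32851 promoter windows and in 2 members, Chat and Tac1. The GC box letters were found in 35.7% of windows and in 5 members, Gad1, Slc17a6, Slc17a7, Slc18a3 and Tac1.

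Library totals ranged from 25840127 to 32987841 counts. The OL markers Mbp and Mog, both of which encode myelin proteins, were at 59380 ± 7820 and 1668 ± 213 counts per 1e6 (CPM; mean ± SD, n = 3) in naive OL libraries and at 11976 ± 1152 and 271 ± 27.3 CPM in naive total RNA. The 10 general neuronal genes (Snap25, Rbfox3, Syt1, Elavl4, Syp, Nefl, Nefm, Stmn2, Uchl1 and Thy1) summed to 827 to 1201 CPM in OL libraries and to 11468 to 12201 CPM in naive total RNA. Pool 2 of dpi 2 held 2414 to 2604 counts of 4 Y-linked genes against at most 13 in the other 22 libraries, although the mice are labelled female. The description and the title of 2 dpi 42 libraries, total RNA replicate 2 and OL replicate 1, name opposite kinds of RNA, and the description was used. A sum of 8 OL markers was 23342 CPM in the former and 103467 CPM in the latter, and the 10 neuronal genes summed to 10232 and 1021 CPM. By these sums each of the 2 libraries matches its description. Counts of a sensory ganglion gene differed between SCI libraries. Scn10a, a sodium channel of nociceptors, had 0 counts in the naive total RNA libraries, 461, 577 and 0 at dpi 2, 289, 0 and 0 at dpi 10, and 252, 776 and 146 at dpi 42. CPM here are relative to the library size after trimmed mean of M-values (TMM) scaling, and q is the adjusted p of edgeR's quasi-likelihood test over the 17167 genes tested, with q below 0.05 as the call. In bulk RNA, fewer neurons, less RNA per neuron and a larger share of RNA from other cells cannot be told apart. In total RNA, 8 microglia and macrophage markers summed to 113 to 143 CPM in naive and 1015 to 1284 at dpi 2. They summed to 3000 to 4139 CPM at dpi 10 and 1677 to 2576 at dpi 42. The part of such RNA in the neuronal levels was not tested.

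In naive total RNA, the vesicular and plasma membrane transporters of inhibitory neurons were the most abundant of the set. Compared per kilobase of exon, which allows levels of different genes to be set side by side, Slc32a1 stood highest at 94.6 ± 6.68 CPM per kb (SD, n = 3), followed by Slc6a5 at 71.7 ± 5.23 and Slc17a6 at 43.3 ± 2.27 CPM per kb. Slc18a3 was at 29.9 ± 3.15 CPM per kb. Gad1, Gad2 and Slc5a7 followed at 22.9 ± 1.92, 20.7 ± 2.92 and 20.7 ± 4.98 CPM per kb, and of these the libraries of Gad1 and Gad2 and those of Gad2 and Slc5a7 overlapped. Tac1 at 7.64 ± 0.574, Chat at 6.66 ± 0.308 and Slc17a7 at 0.961 ± 0.351 CPM per kb closed the order, and no other neighbours overlapped. At dpi 2, from Slc32a1 at 34.4 ± 8.54 down to Gad2 at 9.31 ± 2.50 CPM per kb, the ranges of all neighbours in the order overlapped. These ranges are taken across libraries, and part of the order held within each library. In every dpi 2 library Slc32a1 was the highest of the set, Slc17a6 stood above Slc18a3, and Gad1 stood above Gad2. Slc6a5 stood above Slc17a6 in replicates 1 and 3 and below it in replicate 2. Tac1, at 12.6 ± 1.57 CPM per kb, then stood above Gad1, Gad2, Slc5a7 and Chat in the order of means, although its libraries overlapped those of Gad1, the next gene in the order.

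**Figure D1:**
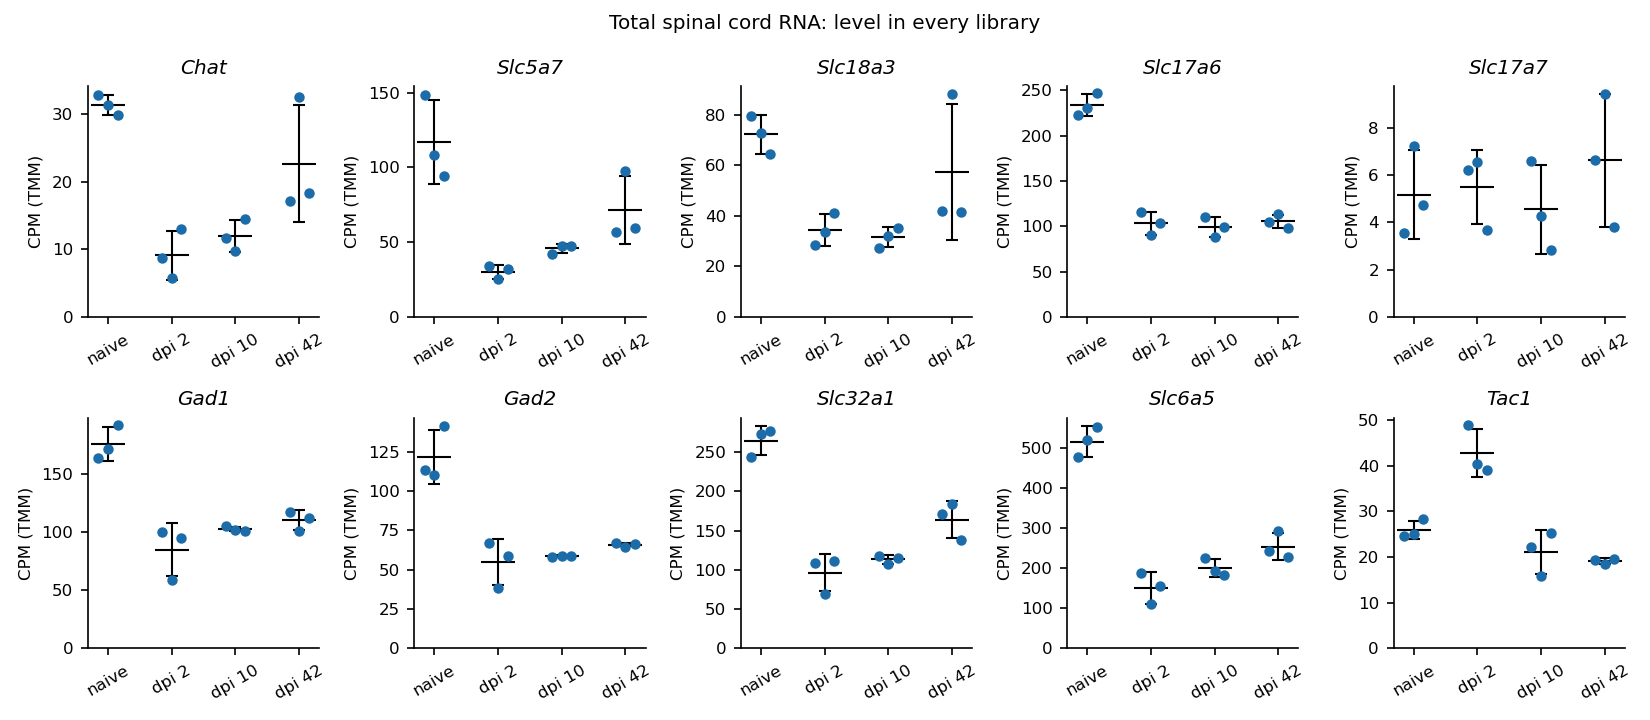
Level of each transmitter gene in the 12 total RNA libraries, in TMM-scaled CPM on linear axes that differ between panels. Points are libraries, and bars are the mean ± SD of 3 libraries. In 8 of the 10 panels all dpi 2 points lie below all naive points, in the Tac1 panel they lie above them, and in the Slc17a7 panel they overlap.

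After SCI, 8 of the 10 genes fell in total RNA at dpi 2, 6 at dpi 10 and 3 at dpi 42, and none rose. Of all genes tested, 20.8% fell at dpi 2, 18.2% at dpi 10 and 12.1% at dpi 42, and 16.4%, 13.9% and 10.4% rose. The libraries of an SCI group lay wholly below the naive ones in 8 members at dpi 2, 8 at dpi 10 and 6 at dpi 42, and wholly above them in 1 at dpi 2, against 35.8%, 36.6%, 30.8% and 24.7% of all genes. The median log2 change of the 10 genes was -1.17 at dpi 2, -1.21 at dpi 10 and -0.68 at dpi 42, beside -0.10, -0.10 and -0.08 over all genes. Over all 24 libraries, edgeR's quasi-likelihood test gave 0 members higher at an unadjusted p below 0.05 at each time point. DESeq2's Wald test called 0 higher. A fit over the 12 total RNA libraries alone, in which the OL libraries do not enter the error estimate, the scaling or the filter, called 8 members lower and Tac1 higher at dpi 2, 8 lower at dpi 10 and 6 lower at dpi 42. In that fit 23.2%, 21.2% and 16.1% of all genes fell and 27.5%, 23.6% and 20.2% rose. Without pool 2 of dpi 2, 6 members fell at dpi 2, 8 at dpi 10 and 4 at dpi 42, and without the 2 libraries whose labels conflict, 8, 6 and 4 fell. Without the dpi 2 and dpi 10 libraries that held more than 100 Scn10a counts, an alternative chosen after seeing the data, 4 fell at dpi 2 and 5 at dpi 10 over both kinds of RNA, and 7 and 8 in total RNA alone. In that alternative the dpi 2 total RNA group is 1 library, replicate 3, which is assumed to vary like the other groups.

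The cholinergic genes fell at dpi 2 and stood closer to their naive levels at dpi 42. Slc5a7 (chr17:54273590-54299034, minus strand), the choline transporter, was at 148, 108 and 94.1 CPM in the naive libraries, 34.0, 25.0 and 31.7 at dpi 2, 42.1, 47.5 and 47.5 at dpi 10, and 56.8, 97.6 and 59.7 at dpi 42. All libraries of dpi 2 and dpi 10 lay below all naive libraries, and those of dpi 42 overlapped them. The log2 change was -1.95 (SE 0.35, q = 0.00014) at dpi 2, -1.35 (SE 0.34, q = 0.00419) at dpi 10 and -0.71 (SE 0.34, q = 0.147) at dpi 42. The rise from dpi 2 to dpi 42 by 1.24 on the log2 scale passed the test (q = 0.0231), while 5.17% of all genes rose and 5.59% fell between these times. No other member was called between time points over all 24 libraries. From dpi 2 to dpi 10, 3.31% of all genes rose and 4.53% fell, and from dpi 10 to dpi 42, 0.0583% rose and 0.204% fell. The rise of Slc5a7 to dpi 42 is lost without dpi 2 total RNA replicate 2 or 3 or dpi 42 total RNA replicate 2 (q = 0.0567 to 0.133), without pool 2 of dpi 2 (q = 0.104) and without the libraries whose labels conflict (q = 0.136).

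Chat, the enzyme that makes acetylcholine, had 32.8, 31.3 and 29.9 CPM in naive total RNA. At dpi 2 its levels were 8.68, 5.71 and 12.97 CPM, at dpi 10 they were 11.6, 9.72 and 14.5, and at dpi 42 they were 17.1, 32.6 and 18.3. Every library of dpi 2 and dpi 10 was below every naive library. The log2 change was -1.78 (SE 0.63, q = 0.0305) at dpi 2 and -1.39 (SE 0.62, q = 0.0968) at dpi 10, and -0.47 (SE 0.61, q = 0.649) at dpi 42. The dpi 2 call of Chat is lost in 7 of the fits that leave out a library (q = 0.0503 to 0.126), among them those without any of the naive total RNA libraries or without dpi 2 total RNA replicate 1 or 2. In the total RNA fit alone, Chat fell at dpi 2 (q = 3.2e-05) and dpi 10 (q = 0.000472).

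Slc18a3, the vesicular acetylcholine transporter, went from 79.5, 72.6 and 64.3 CPM in naive total RNA to 28.5, 33.7 and 41.2 at dpi 2 and 27.4, 32.1 and 35.1 at dpi 10. No library of these times reached a naive library. Its log2 change was -1.06 (SE 0.34, q = 0.0165) at dpi 2 and -1.19 (SE 0.34, q = 0.00936) at dpi 10, and the dpi 2 call is lost without naive total RNA replicate 1 or dpi 2 total RNA replicate 1 or 2 (q = 0.0537 to 0.0705). At dpi 42 the libraries were at 41.9, 88.3 and 41.6 CPM. In all 3 cholinergic genes, dpi 42 replicate 2 was the highest of its group, and it is both the library whose title names the other kind of RNA and the library with the most Scn10a counts.

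The excitatory gene Slc17a6 (chr7:51622006-51671119, plus strand), the main vesicular glutamate transporter of spinal neurons, fell at all 3 times and was as low at dpi 42 as at dpi 2. It had 223, 231 and 247 CPM in naive total RNA, 115, 90.3 and 104 at dpi 2, 110.1, 87.8 and 99.5 at dpi 10, and 104, 113 and 98.5 at dpi 42. The SCI libraries spanned the same narrow range at each time, well below the lowest naive library. The log2 change was -1.18 (SE 0.22, q = 0.00018), -1.24 (SE 0.22, q = 0.000146) and -1.15 (SE 0.22, q = 0.000555), and dpi 42 differed from dpi 2 by 0.03 on the log2 scale (SE 0.21, q = 0.968). Slc17a7 (chr7:45163949-45176142, plus strand), the vesicular glutamate transporter best known from cortex, was close to the bottom of the range. It had 3.54, 7.25 and 4.75 CPM in naive total RNA, 6.24, 6.58 and 3.69 at dpi 2, 6.58, 4.27 and 2.84 at dpi 10, and 6.64, 9.44 and 3.81 at dpi 42. Its groups overlapped throughout, and no change passed the test (q = 0.947, 0.87 and 0.757).

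Among the inhibitory genes, Slc6a5 (chr7:49910146-49963856, plus strand), the glycine transporter of glycinergic terminals, had the largest log2 changes in total RNA at each time. Its levels were 476, 521 and 551 CPM in naive total RNA, 187, 109 and 155 at dpi 2, 225, 193 and 183 at dpi 10, and 242, 292 and 228 at dpi 42. All SCI libraries lay below all naive libraries. The log2 change was -1.78 (SE 0.28, q = 3.8e-05) at dpi 2, -1.37 (SE 0.28, q = 0.000677) at dpi 10 and -1.02 (SE 0.28, q = 0.0104) at dpi 42, and the last call is lost without dpi 42 total RNA replicate 3 (q = 0.0502).

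Slc32a1 (chr2:158610767-158615748, plus strand) loads GABA and glycine into vesicles. It had 243, 273 and 277 CPM in naive total RNA, 109, 68.7 and 111 at dpi 2, 118, 107 and 115 at dpi 10, and 171, 184 and 138 at dpi 42. The SCI libraries were lower than the naive libraries at every time, and those of dpi 42 were higher than those of dpi 2 and dpi 10. Slc32a1 fell by 1.46 on the log2 scale at dpi 2 (SE 0.26, q = 0.000108) and by 1.22 at dpi 10 (SE 0.25, q = 0.000762), and its log2 change at dpi 42 was -0.69 (SE 0.25, q = 0.0533). It shares 697 exon bases with Gm14205, a gene on the opposite strand that has no row in the table, and without strand their reads could not be told apart.

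Of the GABA-synthesizing enzymes, Gad2 fell at all 3 times and Gad1 at dpi 2. Gad2 (chr2:22622205-22693874, plus strand) went from 114, 110.4 and 142 CPM in naive total RNA to 66.8, 38.4 and 59.0 at dpi 2, 57.8, 58.8 and 58.9 at dpi 10, and 66.8, 64.6 and 66.0 at dpi 42. Its log2 change was -1.15 (SE 0.26, q = 0.00133), -1.06 (SE 0.26, q = 0.00331) and -0.89 (SE 0.26, q = 0.0169), with no overlap with the naive libraries. The dpi 42 call of Gad2 is lost without naive total RNA replicate 3 or dpi 42 total RNA replicate 1 or 3 (q = 0.0523 to 0.0802). Gad1 (chr2:70553072-70602014, plus strand) had 163, 171 and 191 CPM in naive total RNA, 100.1, 58.6 and 94.9 at dpi 2, 105, 101 and 101 at dpi 10, and 117.2, 100.4 and 112 at dpi 42. Here too no SCI library reached a naive library, but the log2 change of -1.05 (SE 0.40) at dpi 2 was close to the threshold (q = 0.0447), and those at dpi 10 and dpi 42, -0.77 and -0.67, did not pass (q = 0.154 and 0.253). The dpi 2 call of Gad1 is lost in 22 of the fits that leave out a library, whereas in the total RNA fit alone Gad1 fell at dpi 2, dpi 10 and dpi 42 (q = 3.1e-05, 0.00102 and 0.0041).

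Tac1 (chr6:7554879-7565834, plus strand), the substance P precursor, moved the other way at dpi 2. It had 24.6, 25.1 and 28.2 CPM in naive total RNA, 48.9, 40.4 and 39.0 at dpi 2, 22.1, 15.9 and 25.2 at dpi 10, and 19.4, 18.4 and 19.6 at dpi 42. All dpi 2 libraries exceeded all naive libraries, and all dpi 42 libraries were below them. The log2 change at dpi 2 was 0.72 (SE 0.38, q = 0.153), which did not pass over all 24 libraries and passed in the total RNA fit alone (0.89, SE 0.15, q = 4.7e-05). In the latter fit Tac1 also fell from dpi 2 to dpi 10 by 1.05 on the log2 scale (q = 5.4e-05) and from dpi 2 to dpi 42 by 1.21 (q = 1e-05). Dorsal root ganglion neurons express Tac1, and 8 ganglion markers summed to 9.74 to 14.1 CPM in naive total RNA, 6.86 to 76.4 at dpi 2, 4.44 to 30.7 at dpi 10 and 21.1 to 91.3 at dpi 42, with Scn10a and Mrgprd at 0 in the naive libraries. The dpi 2 library without Scn10a counts, replicate 3, had 39.0 CPM of Tac1, above the highest naive library. Leaving out the dpi 2 and dpi 10 libraries that held more than 100 Scn10a counts left replicate 3 as the 1 library of dpi 2. The total RNA fit then gave a Tac1 change of 0.74 at dpi 2. The part of ganglion RNA in the Tac1 level was not tested.

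**Figure D2:**
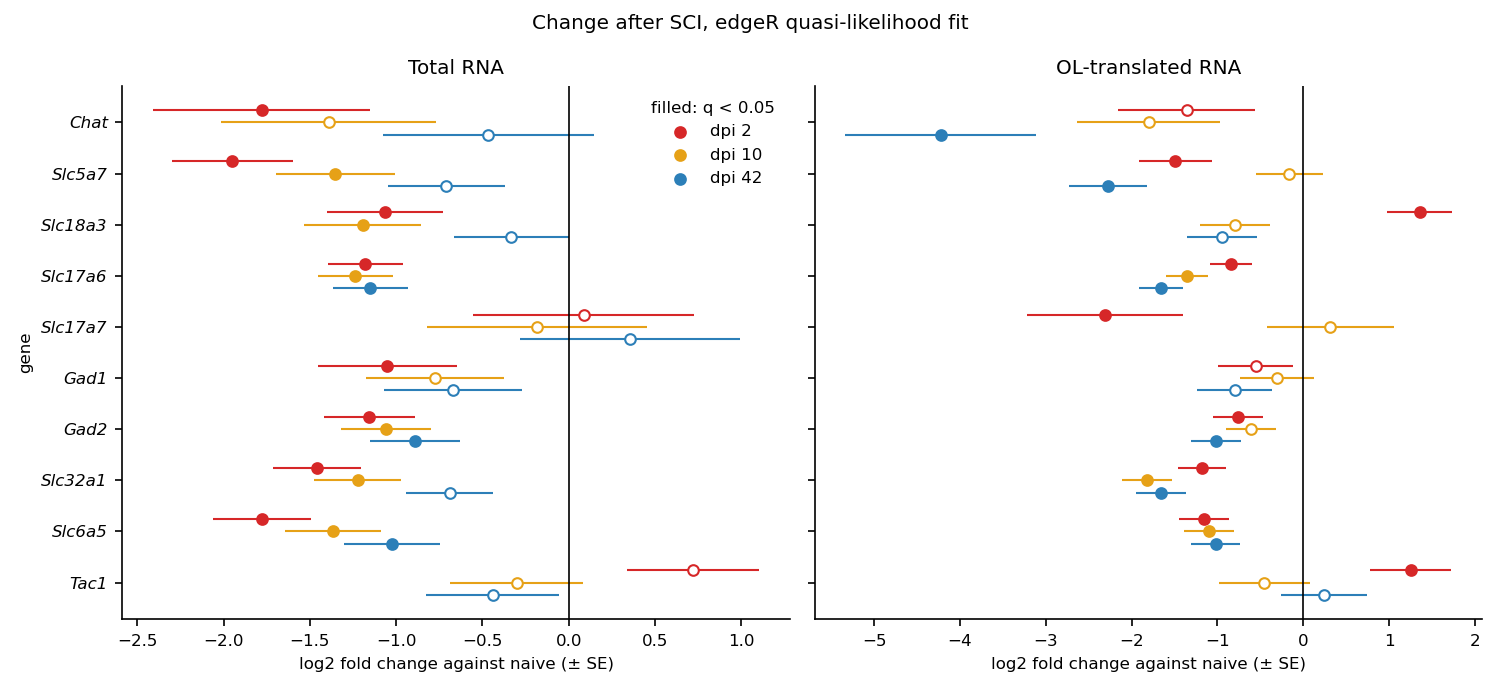
Log2 fold change of each gene against naive in total RNA (left) and OL libraries (right), with bars for the SE and filled points where q was below 0.05, from the fit over all 24 libraries. Slc17a7 at dpi 42 is left out of the OL panel, since all 3 of its OL libraries were at 0. In total RNA 8 genes lie left of 0 at dpi 2, and in OL RNA Slc18a3 and Tac1 at dpi 2 lie to the right.

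Neuronal mRNAs as a class also fell, so each gene was next set against the 10 general neuronal genes of the same library. Those genes averaged 9.43 ± 0.05 on the log2 CPM scale in naive total RNA. They were at 8.54 ± 0.15 at dpi 2, 8.49 ± 0.07 at dpi 10 and 8.87 ± 0.27 at dpi 42. After SCI, 7, 9 and 5 of the 10 fell, beside 20.8%, 18.2% and 12.1% of all genes tested. Relative to the general neuronal genes, 5 members stood lower at dpi 2 than in any naive library. Slc5a7 differed by -0.97 on the log2 scale, Slc6a5 by -0.90, Chat by -0.74, Slc32a1 by -0.58 and Slc17a6 by -0.28. The means of these genes had moved further down than the general neuronal mRNAs, those of Slc5a7 and Slc6a5 furthest. Tac1 and Slc17a7 stood higher at dpi 2, by 1.57 and 0.96. With a pseudocount of 0.5 in place of 2, only 1 member stood higher at dpi 2. Slc17a7 was then at 6.24 and 6.58 CPM in the libraries with 461 and 577 Scn10a counts, and at 3.69 CPM in replicate 3. The part of ganglion RNA in the Slc17a7 level was not tested. For Slc18a3, Gad1 and Gad2 the dpi 2 libraries overlapped the naive ones.

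At dpi 10, Chat (-0.33), Slc17a6 (-0.29), Slc32a1 (-0.27) and Slc6a5 (-0.42) remained below the naive range relative to the neuronal genes, and Gad1 (0.18) and Tac1 (0.64) were above it. At dpi 42, Slc17a6 (-0.57) and Slc6a5 (-0.46) were below and Slc17a7 (0.80) above. The exact two-sided permutation test of 3 libraries against 3 cannot give a p below 0.1, which each of these differences reached, and the lowest adjusted p over the 30 comparisons was 0.188. None of them is called. On the same measure, 4.5% of all genes tested lay wholly below the naive libraries at dpi 2, 1.89% at dpi 10 and 2.65% at dpi 42, and 81.3%, 89.7% and 60.8% lay wholly above them.

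**Figure D3:**
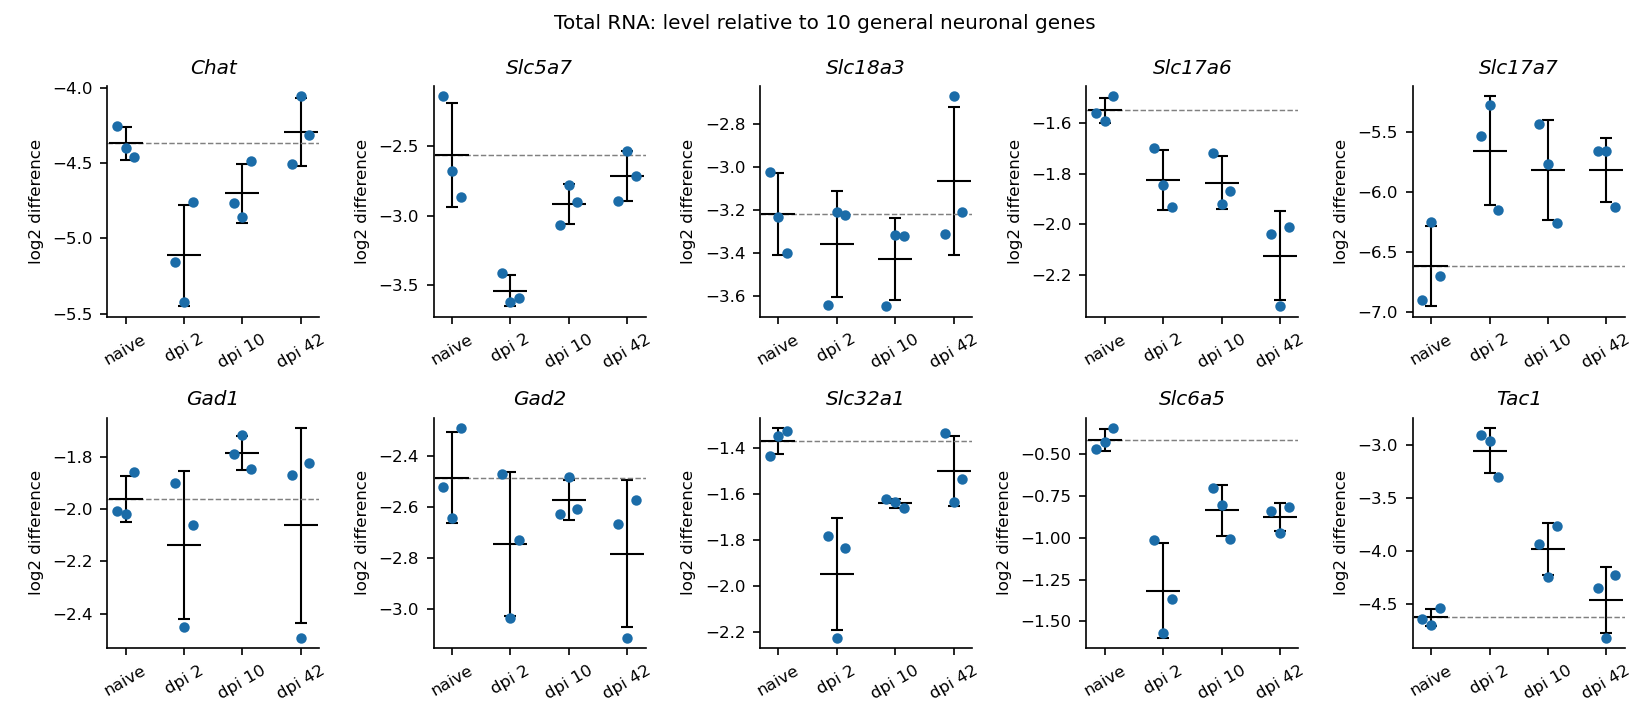
Log2 CPM of each gene minus the mean log2 CPM of 10 general neuronal genes in the same total RNA library. Points are libraries, bars the mean ± SD of 3 libraries, and the dashed line is the naive mean. At dpi 2 Slc5a7 and Slc6a5 lie 0.97 and 0.90 below the naive mean and Tac1 lies 1.57 above it.

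Ratios of genes within a library do not depend on the scaling between libraries. The excitatory to inhibitory ratio Slc17a6 to Slc32a1 was 0.883 in naive total RNA, 1.09 at dpi 2, 0.872 at dpi 10 and 0.646 at dpi 42. It was above the naive range at dpi 2 and below it at dpi 42, by -0.45 on the log2 scale. The ratio of the glycine transporter to the shared vesicular transporter, Slc6a5 to Slc32a1, was 1.95 in naive, 1.56 at dpi 2 and 1.55 at dpi 42, with no overlap, and 1.76 at dpi 10, with overlap. Slc17a7 to Slc17a6 was 0.0214 in naive, 0.0522 at dpi 2 and 0.0593 at dpi 42, above every naive library, and 0.0439 at dpi 10, where libraries overlapped. Gad1 to Gad2 was 1.44 in naive, 1.54 at dpi 2, 1.75 at dpi 10 and 1.67 at dpi 42, above the naive range at the later times. Within the cholinergic locus, Slc18a3 to Chat was 2.30 in naive total RNA and 3.94 at dpi 2, where no library overlapped, and 2.66 and 2.47 later, where libraries overlapped. Tac1 to Slc17a6 was 0.111 in naive total RNA, 0.415 at dpi 2, 0.210 at dpi 10 and 0.182 at dpi 42, above every naive library at each time. Chat to Slc32a1 overlapped naive at each time. Each ratio without overlap had an exact permutation p of 0.1, the smallest possible, and an adjusted p of 0.175 over 21 comparisons.

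**Figure D4:**
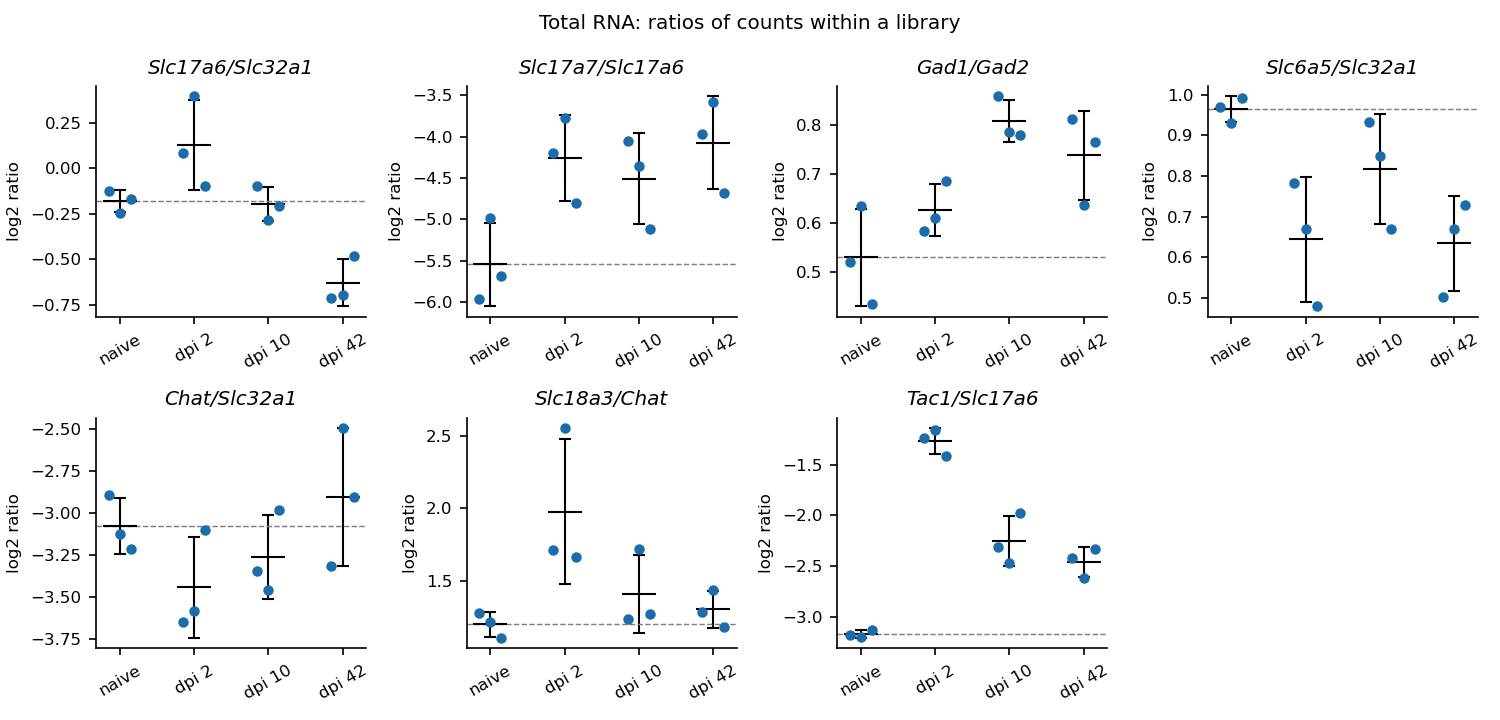
Log2 ratio of counts between pairs of transmitter genes within each total RNA library. Points are libraries, bars the mean ± SD of 3 libraries, and the dashed line is the naive mean. The Tac1 to Slc17a6 ratio is above the naive libraries at dpi 2, 10 and 42, and the Slc17a6 to Slc32a1 ratio is above them at dpi 2 and below them at dpi 42.

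Other genes of the same pathways are given by count. Of 10 other cholinergic and motor neuron genes, 3 fell and 1 rose in total RNA at dpi 2, with a median log2 change of -0.51. These counts are near the shares over all genes tested, of which 20.8% fell and 16.4% rose. Chodl, a motor neuron marker, fell by 1.96 on the log2 scale (SE 0.56, q = 0.00867), and Slc44a1, a choline transporter found in many cell types, rose by 0.41 (SE 0.12, q = 0.0111). At dpi 10, 2 fell and 1 rose, beside 18.2% and 13.9% of all genes, and at dpi 42 none was called. Of 10 other genes of glutamate release and handling, 8 fell at dpi 2, 4 at dpi 10 and 4 at dpi 42, and none rose. Over all genes tested, 20.8%, 18.2% and 12.1% fell. Gls2, a glutaminase, fell by 1.71 at dpi 2 (SE 0.61, q = 0.0331), and Glul, the glutamine synthetase of glia, fell by 0.54 (SE 0.13, q = 0.00183).

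Receptors on the receiving side of inhibition were lower too. Of 11 glycine and GABA-A receptor genes, 8 fell at dpi 2, 6 at dpi 10 and 5 at dpi 42, and none rose. Their median log2 changes were -1.38, -1.17 and -1.03. Beside them, 20.8%, 18.2% and 12.1% of all genes tested fell. Glra1, the adult glycine receptor subunit, fell by 3.18 at dpi 2 (SE 0.55, q = 9.11e-05), by 2.25 at dpi 10 (SE 0.53, q = 0.00221) and by 1.74 at dpi 42 (SE 0.52, q = 0.0188), and Glrb, its partner subunit, fell by 1.40 at dpi 2 (SE 0.17, q = 1.56e-06). Of 10 other genes of GABA and glycine handling, 7 fell and 2 rose at dpi 2, when 16.4% of all genes rose. Slc6a9, a glycine transporter of the cell membrane, fell by 0.91 (SE 0.12, q = 4.69e-06), Slc6a11, a GABA transporter of astrocytes, fell by 2.28 (SE 0.80, q = 0.029), and Slc6a13, a GABA transporter of the meninges, rose at dpi 10 by 3.32 (SE 0.67, q = 0.000578).

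Few other peptide genes were called in total RNA in the fit over all 24 libraries. Of 16 other spinal neuropeptide genes, 1 rose at dpi 2 (Gal, the precursor of galanin, by 1.79, SE 0.43, q = 0.00283). At dpi 10, 2 rose (Npy and Adcyap1, the latter by 1.12, SE 0.32, q = 0.0105). None fell at any time in that fit, in which 16.4% of all genes rose at dpi 2 and 13.9% at dpi 10. The total RNA fit alone called 4 higher and 2 lower at dpi 2, and 3 higher and 1 lower at dpi 10. At dpi 42 it called 0 higher and 2 lower. It called 27.5%, 23.6% and 20.2% of all genes higher at dpi 2, dpi 10 and dpi 42. Of 15 transcription factors of spinal neuron classes, 3 fell at dpi 2, Lmx1b (-1.34, SE 0.49, q = 0.0346), Pax2 and Zfhx3 (-0.54, SE 0.16, q = 0.00916), and Pax2, a factor of inhibitory neurons, also fell at dpi 10 (-0.90, SE 0.20, q = 0.00122). At dpi 2, 20.8% of all genes fell. The total RNA fit alone called 9 of the 15 lower and 1 higher at dpi 2, 5 lower at dpi 10 and 2 lower at dpi 42. In that fit 23.2%, 21.2% and 16.1% of all genes fell. In total RNA no gene of 7 for the descending monoamine systems was called, with medians of -0.23, 0.28 and -0.06. The 7 genes summed to only 9.53 to 21.8 CPM there, with Slc6a2, Slc6a3 or Slc6a4 at 0 in some groups. At such levels the lack of calls decides little.

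As a description of likeness, Pearson's r of log2 CPM with every other gene of at least 100 mean counts was taken over the 12 total RNA libraries, which fall into a naive and an SCI cluster. Slc6a5 was most like Atp8a2 (r = 0.997), Pja2 (0.996) and Scn1a (0.996), and Slc32a1 was most like Tmem150c, Dnm1 and Faim2 (0.995 each). Chat was most like Hapln4 (0.984), Cpne6 (0.981) and Ckmt1 (0.975). Tac1 had looser company in Suv39h1 (0.938), Itgav (0.915) and Hs2st1 (0.914). Among the members themselves, Slc32a1 and Slc6a5 were alike at r = 0.98, Gad1 and Gad2 at 0.97 and Chat and Slc5a7 at 0.94, while Tac1 ranged from -0.49 to 0.06 and Slc17a7 from -0.12 to 0.18 with the other genes.

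In OL libraries all 10 genes were lower than in total RNA of the same pools, in every group, where 29.1% of all genes were lower in naive, 26.9% at dpi 2, 26.4% at dpi 10 and 26.8% at dpi 42. The median log2 difference of OL against total RNA was -4.85 in naive, -4.67 at dpi 2, -4.40 at dpi 10 and -5.53 at dpi 42, beside -0.31, -0.24, -0.24 and -0.24 over all genes. In naive mice the differences ran from -3.72 for Slc17a7 to -5.25 for Tac1. The genes together summed to 1508 to 1630 CPM in naive total RNA and to 55.5 to 65.6 CPM in naive OL libraries. The OL values below describe this small remainder.

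**Figure D5:**
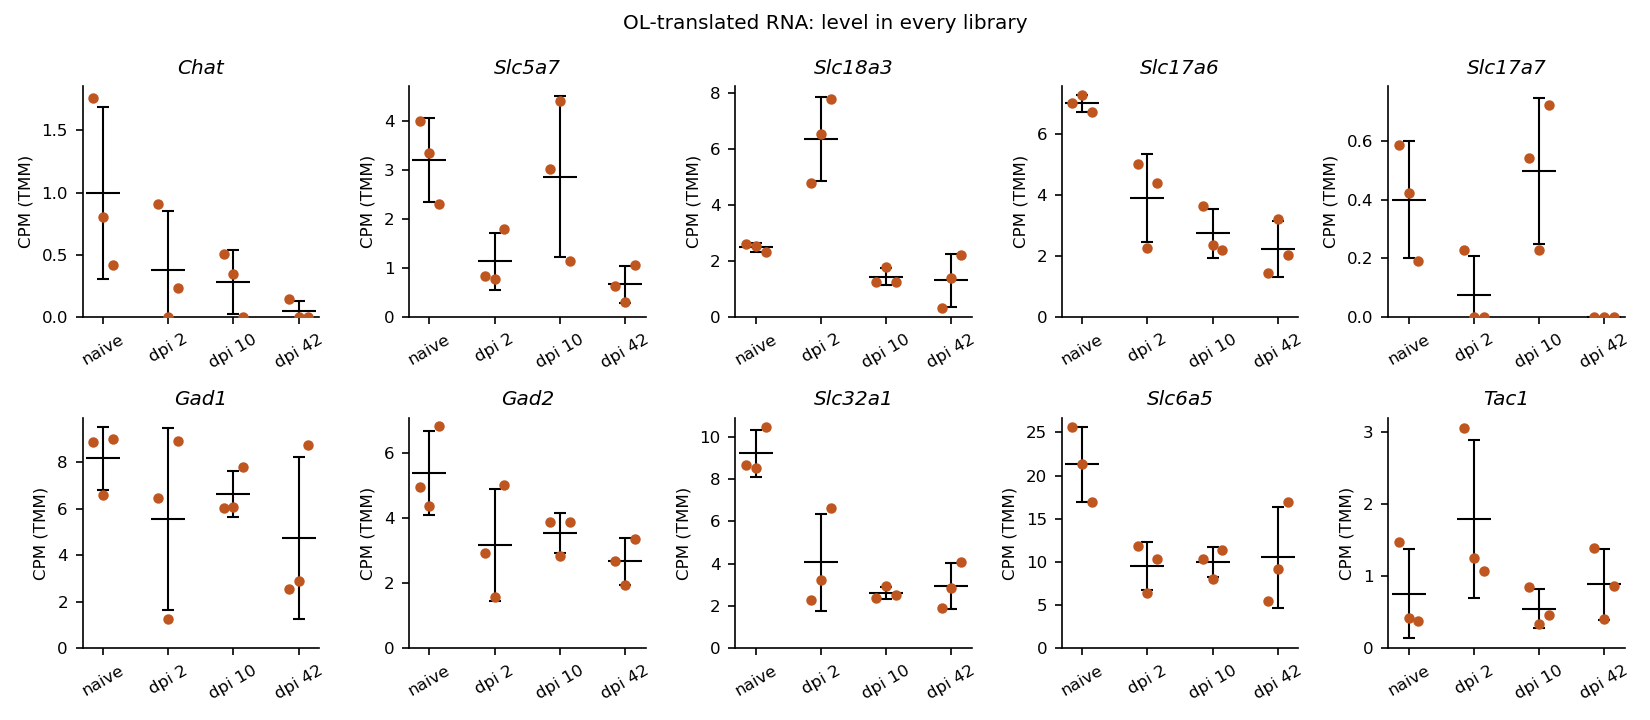
Level of each transmitter gene in the 12 OL libraries, in TMM-scaled CPM on linear axes that differ between panels. Points are libraries, and bars are the mean ± SD of 3 libraries. The dpi 2 points of Slc18a3, at 4.76 to 7.77 CPM, lie above all other libraries of that gene, and the dpi 42 points of Slc17a7 are at 0.

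Slc18a3 was the exception among the cholinergic members. In OL libraries it had 2.61, 2.54 and 2.29 CPM in naive mice, 4.76, 6.52 and 7.77 at dpi 2, 1.24, 1.79 and 1.26 at dpi 10, and 0.315, 1.38 and 2.19 at dpi 42. Each dpi 2 library exceeded each library of the other times, and the dpi 2 values rested on 126, 161 and 203 counts. While Slc18a3 fell in total RNA, it rose by 1.36 on the log2 scale in OL libraries at dpi 2 (SE 0.37, q = 0.00646). Its level in OL RNA as a percent of that in total RNA of the same pool was 3.28 to 3.57 in naive, 16.7 to 19.3 at dpi 2, 3.58 to 5.58 at dpi 10 and 0.356 to 5.27 at dpi 42. The other members had group medians of 0 to 8.26 percent, with single pools of Slc17a7 as high as 16.6 percent in naive and 25.5 at dpi 10, and of Chat as high as 10.5 at dpi 2.

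The difference between the OL change and the total RNA change of Slc18a3 at dpi 2 was 2.41 on the log2 scale (SE 0.58, q = 0.0155), and 7.5% of all genes had such a positive difference. No other member had one at dpi 2 (unadjusted p below 0.05 and DESeq2 call in 1 member, Slc18a3 itself). The call is lost in 7 of the fits that leave out a library, without naive total RNA replicate 1 or 2, naive OL replicate 1 or 2, or any dpi 2 OL library (q = 0.0504 to 0.0757). Without pool 2 of dpi 2 the difference was 2.36 (q = 0.0471). The fit over the 12 OL libraries alone gave a similar rise of 1.40 with q = 0.0747. Its neighbour Chat had 42, 19 and 11 counts in naive OL libraries and 24, 0 and 6 at dpi 2, an OL change of -1.36 (SE 0.80, q = 0.194). Of the 10 general neuronal genes, 3 rose in OL libraries at dpi 2 (Stmn2, Syp and Uchl1) and 3 fell (Rbfox3, Snap25 and Syt1), and of the 16 other neuropeptide genes 7 rose and none fell, among them Trh by 4.05 (q = 0.0022) and Penk by 1.15 (q = 0.00267). The fit over the OL libraries alone called 2 of the neuronal genes higher and 1 lower, and 2 of the neuropeptide genes higher and 0 lower. In that fit 14.9% of all genes fell. Of the 10 other cholinergic and motor neuron genes, 1 rose in OL libraries at dpi 2 (Isl2, by 3.93, q = 0.0479) and 2 fell (Ache and Nos1). The OL fit alone called 0 of those 10 higher and 1 lower. Schwann cell markers, 5 genes of a cell type in which the Cre driver is also active, summed to 1.89, 1.82 and 636 CPM in naive OL libraries and to 214, 677 and 299 CPM at dpi 2, and their part in the Slc18a3 value was not tested.

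Tac1 also rose in OL libraries at dpi 2, by 1.25 on the log2 scale (SE 0.47, q = 0.0415), but its libraries overlapped. It had 35, 10 and 10 counts in naive OL libraries and 81, 31 and 28 at dpi 2. The call is lost in 6 of the fits that leave out a library (without naive OL replicate 2 or 3, dpi 2 OL replicate 1, dpi 10 OL replicate 2 or 3, or dpi 42 OL replicate 3, q = 0.0526 to 0.41), and the change was 0.55 to 2.10 over all such fits. Beside these 2 genes, 18.4% of all genes rose. The other changes were downward: 6 of the 10 genes fell at dpi 2, 3 at dpi 10 and 7 at dpi 42, where 20%, 8.59% and 16.9% of all genes fell. Without pool 2 of dpi 2, 3 members fell and 2 rose at dpi 2. The members' median log2 change was -1.0, -0.70 and -1.34, beside 0.00 over all genes at each time.

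Slc6a5, Slc32a1 and Slc17a6 fell in OL libraries at all 3 times. Slc6a5 had 25.6, 21.4 and 16.9 CPM in naive OL libraries, 11.9, 6.44 and 10.3 at dpi 2, 10.4, 8.03 and 11.4 at dpi 10, and 5.42, 9.18 and 16.9 at dpi 42. Slc32a1 had 8.66, 8.50 and 10.5 CPM in naive, 2.31, 3.24 and 6.66 at dpi 2, 2.37, 2.93 and 2.51 at dpi 10, and 1.89, 2.84 and 4.07 at dpi 42. Slc17a6 had 7.02, 7.28 and 6.73 CPM in naive, 5.03, 2.27 and 4.40 at dpi 2, 3.65, 2.36 and 2.21 at dpi 10, and 1.43, 3.21 and 2.03 at dpi 42. Of these 3, only Slc6a5 at dpi 42 had a library as high as the naive range. The fall of Slc32a1 was 1.18, 1.82 and 1.66 on the log2 scale, and that of Slc6a5 was 1.16, 1.10 and 1.02.

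In the fit over OL libraries alone, 1 gene fell at dpi 2 (Slc6a5, q = 0.0336), 1 at dpi 10 (Slc32a1, q = 0.0196) and 3 at dpi 42 (Slc5a7, Slc17a6 and Slc32a1), where 14.9%, 3.86% and 12.4% of all genes fell. None rose in that fit of edgeR, where Slc18a3 at dpi 2 was the 1 member at an unadjusted p below 0.05 in the higher direction.

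At dpi 42 the OL levels of some cholinergic and glutamatergic genes were near 0. Chat had 4, 0 and 0 counts at dpi 42 and fell by 4.22 on the log2 scale (SE 1.11, q = 0.00471). Slc5a7 fell by 2.28 on the log2 scale (SE 0.45, q = 0.000558), from 3.99, 3.34 and 2.29 CPM to 0.629, 0.299 and 1.06. Slc17a7 had 14, 10 and 5 counts in naive OL libraries and 0, 0 and 0 at dpi 42. A floor of 3 counts over the group is 0.0371 CPM, and it leaves out the spread between libraries. Against that floor, the mean of Slc17a7 was 10.8-fold higher in naive OL libraries and 179-fold higher in dpi 42 total RNA. These folds are no strict bounds for Slc17a7. The difference between its OL and total RNA changes was called (q = 0.0417), as 3.51% of all genes were in this direction, and the call is lost in 13 of the fits that leave out a library and without the libraries whose labels conflict (q = 0.103). Counts this low carry wide counting error.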

How the data were processed

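Total RNA and OL-translated RNA of 12 tissue pools were sequenced as 24 libraries. Per the labels and methods, the authors prepared libraries from total lysate and HA immunoprecipitate, checked reads with FastQC 0.10.1, aligned them to mm10 (GRCm38.p6) with STAR and counted genes with HTSeq 0.10.0. The deposited values are raw read counts per gene. No strand setting was given in the sources used here. Gene IDs were matched to GENCODE symbols (21939 of 21965). The 10 genes and all gene lists were chosen with earlier results of these data known. Genes with fewer than 10 counts over all libraries were left out, which left 17167. Counts were scaled by TMM and tested with edgeR 4.0.16 (glmQLFit and glmQLFTest, R 4.3.3) over 8 group means, with Benjamini-Hochberg adjustment over all genes tested. TMM factors were 0.742 to 0.899 in OL and 1.10 to 1.29 in total RNA libraries. OL against total RNA, and the difference of the OL and total RNA changes, were fitted with the tissue pool as a block, as the methods pair them. Deviations from the group means correlated between the libraries of a pool at r = -0.011 to 0.137. Levels relative to the neuronal genes (log2 of CPM plus 2) and within-library ratios (counts plus 1) were tested with an exact two-sided permutation test over all regroupings of the libraries, in Python 3.11.15. OL totals were 29075211 to 32987841 counts and total RNA totals 25840127 to 29050061, and precision at low counts is set by counting error. Replicates are separate pools. No pair agreed within sampling noise, since the lowest median chi-square per gene between replicates was 2.51, against 0.455 by counting alone. Genes named outside the 10 are, per list, the one with the most counts and the called one with the largest change, and the 3 most alike for 4 members (those of Slc17a6 are not reported here). Other genes were named after their values were seen. Alternatives were another scaling (DESeq2 1.42.0 size factors, library sizes), DESeq2's Wald test, other filters, other samples in the fit, blocks and left-out libraries. The scripts were tested on simulated data.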

Additional observations from a re-analysis of the deposited data

Results flagged for a closer look

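The OL change of Slc18a3 at dpi 2 went the other way from its total RNA change, and the test of the difference gave 2.41 on the log2 scale (q = 0.0155 in edgeR's quasi-likelihood test), with OL levels in 3 of 3 dpi 2 libraries above all naive OL libraries and total RNA levels in 3 of 3 below all naive ones. The OL and total RNA changes of Slc17a7 at dpi 42 also differed by the same test. The fitted difference was -6.91 (q = 0.0417), which is no estimate of size because the 3 dpi 42 OL libraries held 0 counts and the naive OL libraries 14, 10 and 5.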

How the results depend on the processing

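Counts of members called at q below 0.05 moved most in fits over fewer libraries, which change the error estimate, the scaling and the genes tested together. With only the 12 libraries of the same kind of RNA, total RNA gave 1 higher at dpi 2, 6 lower at dpi 42, 1 higher and 1 lower from dpi 2 to dpi 10, 3 higher from dpi 10 to dpi 42, and 5 higher and 1 lower from dpi 2 to dpi 42, while OL libraries gave 0 higher and 1 lower at dpi 2, 1 lower at dpi 10 and 3 lower at dpi 42. With only the 2 groups compared, total RNA gave 1 higher at dpi 2, 7 lower at dpi 42, 1 higher and 1 lower from dpi 2 to dpi 10, 4 higher from dpi 10 to dpi 42, and 4 higher and 1 lower from dpi 2 to dpi 42, and OL libraries gave 1 higher and 1 lower at dpi 2 and 3 lower at dpi 42. The same-kind fit moved the median of all genes by 0.117 to 0.169 in total RNA changes, and library sizes alone moved it by 0.128 to 0.222. Library sizes alone gave 5 lower at dpi 2 and 1 lower from dpi 2 to dpi 42 in total RNA. DESeq2's Wald test gave 3 higher and 1 lower from dpi 2 to dpi 42, and 3 lower in the difference of OL and total RNA changes at dpi 42. DESeq2 size factors in the edgeR fit, no filter and filterByExpr changed no count by over 1.5 times.

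Without the dpi 2 and dpi 10 libraries with over 100 Scn10a counts (chosen after seeing the data), 4 members fell at dpi 2 in total RNA and Slc17a7 turned to -0.49 on the log2 scale, and in the total RNA fit alone 1 rose at dpi 2, 1 fell from dpi 2 to dpi 10, and Slc17a7 was -0.34. The dpi 2 total RNA group is then 1 library, assumed to vary like the other groups. Without pool 2 of dpi 2, Slc17a7 was -0.062 in total RNA at dpi 2, 3 members fell in OL libraries at dpi 2, and 0 rose from dpi 2 to dpi 42. Without the 2 libraries whose labels conflict, Tac1 in OL libraries at dpi 42 was -0.25, 0 rose from dpi 2 to dpi 42, and 0 differed between OL and total RNA changes at dpi 42. Among the levels relative to neuronal genes, a pseudocount of 0.5 left 1 member above naive at dpi 2 and 0 at dpi 42, and leaving out Elavl4, Nefl or Nefm left 1 at dpi 10.

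Leaving out each library gave 5 to 8 lower and 0 to 1 higher in total RNA at dpi 2, 1 to 4 lower at dpi 42, 0 to 3 higher and 0 to 1 lower from dpi 2 to dpi 42, and 1 to 2 higher in OL libraries at dpi 2. Without dpi 42 total RNA replicate 3, 1 member was lower at dpi 42. The differences of OL and total RNA changes gave 0 to 1 higher and 0 to 1 lower at dpi 2 and 0 to 3 lower at dpi 42. Uncalled changes that crossed 0 were those of Slc17a7 in total RNA at dpi 2 (-0.13 to 0.41) and dpi 10 (-0.54 to 0.14) and in OL libraries at dpi 10 (-0.057 to 0.70), Slc5a7 in OL libraries at dpi 10 (-0.62 to 0.21), and Tac1 in OL libraries at dpi 10 (-0.91 to 0.45) and dpi 42 (-0.29 to 1.09). Relative to neuronal genes, 1 to 2 members stood above naive at dpi 42. Of the ratios, 1 to 2 stood below naive at dpi 2 and 0 to 1 at dpi 10.

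With the replicate number of the titles as a block, 1 member rose and 8 fell in total RNA at dpi 2, 1 rose and 2 fell in OL libraries at dpi 2, and 2 rose and 1 fell from dpi 2 to dpi 10. Whether pools of the same number share a source was not tested. Deviations of same-numbered naive and SCI total RNA libraries correlated at r = -0.045 to 0.017 at dpi 2 and 0.023 to 0.039 at dpi 10. Those of other-numbered ones correlated at -0.027 to 0.033 and -0.022 to -0.0037. In OL libraries, same-numbered pairs were at 0.090 to 0.248 at dpi 2 and -0.143 to 0.082 at dpi 10. Other-numbered OL pairs were at -0.174 to 0.091 and -0.142 to 0.208. No such block was fitted for dpi 42, where the titles of 2 libraries conflict with the descriptions and replicates were numbered in accession order instead. Without the tissue-pool block, all 10 members stayed lower in OL than in total RNA in each group, and the Slc18a3 difference at dpi 2 was 2.42. Unless a reason is given, the cause of a change was not tested. Depth limits the OL values of Chat, Slc17a7 and Tac1, which rest on few counts.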
